A study of Mus musculus with 12 samples.

Results

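The genes followed here were *Myl4*, *Myl7*, *Sln* and *Bmp10*, 4 of the 53801 genes counted in RNA from whole mouse hearts. They were picked by symbol because atrial transcripts had spread widely among sham hearts, so the sham values below are given as a description and were not tested. All 4 passed the filter on low counts, which left 15306 genes for testing. The hearts came from C57BL/6N mice with no engineered allele, taken after sham surgery (4 hearts), 1 day after acute myocardial infarction (day 1 AMI, 4 hearts) and 7 days after it (day 7 AMI, 4 hearts). AMI was produced by tying off the left anterior descending coronary artery, which feeds the left ventricle. Each heart gave 1 library of total RNA. When the sham mice were killed is not given in the sources used here. In such bulk samples, fewer cells of a type and less RNA per cell cannot be told apart.

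Atrial and ventricular cardiomyocytes build their sarcomeres from different versions of the same parts. Each myosin head carries an essential and a regulatory light chain. *Myl4* encodes the atrial essential light chain and *Myl7* the atrial regulatory one, whereas *Myl3* and *Myl2* encode their ventricular counterparts. *Sln* encodes sarcolipin, a small membrane protein that inhibits the calcium pump of the sarcoplasmic reticulum and is found mainly in the atria of the mouse heart. *Bmp10* encodes a secreted ligand of the BMP family that adult mice make chiefly in the right atrium and that signals through the endothelial receptor ALK1. The adult ventricle makes little of any of these transcripts, so in a whole heart they are carried by a small part of the tissue.

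In the GRCm38 build with the GENCODE M21 annotation, all are protein-coding genes with no 75-base exon stretch shared with another gene. *Myl4* (ENSMUSG00000061086) lies on the plus strand of chromosome 11 from 104550663 to 104595753 with 8 transcripts, and 0.0647% of its exon bases overlap a small gene on the opposite strand. *Myl7* (ENSMUSG00000020469) lies on the minus strand of the same chromosome from 5896637 to 5898782. *Sln* (ENSMUSG00000042045) lies on chromosome 9 from 53850164 to 53854560, plus strand. *Bmp10* (ENSMUSG00000030046) lies on chromosome 6 from 87428994 to 87437677, plus strand. The 250 bases before the start of *Myl7* and *Bmp10* are printed from RefSeq (GRCm38.p6) in the direction of the gene. The pair was chosen because *Bmp10* kept no fixed ratio to *Myl7* from heart to heart. Capitals mark the letters GATAAG and AGATAA, which contain the core read by GATA factors, and the CArG box read by serum response factor.
Myl7 (chr11:5898783-5899032, minus strand): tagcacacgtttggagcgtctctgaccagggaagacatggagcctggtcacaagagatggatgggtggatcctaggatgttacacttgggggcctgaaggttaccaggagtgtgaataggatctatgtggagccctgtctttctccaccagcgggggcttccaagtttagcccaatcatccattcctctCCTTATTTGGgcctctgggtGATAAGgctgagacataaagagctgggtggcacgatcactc
Bmp10 (chr6:87428744-87428993, plus strand): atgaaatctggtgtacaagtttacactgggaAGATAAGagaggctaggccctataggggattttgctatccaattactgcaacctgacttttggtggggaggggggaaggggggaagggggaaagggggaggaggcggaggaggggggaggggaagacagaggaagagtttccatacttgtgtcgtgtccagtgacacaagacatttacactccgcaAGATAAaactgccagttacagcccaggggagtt

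The *Myl7* stretch held a CArG box that began 61 bases before the start and GATAAG at 41 bases. The *Bmp10* stretch held AGATAA at 219 and 33 bases before the start, and the first of these overlapped GATAAG at 218 bases. The *Myl4* stretch (chr11:104550413-104550662, plus strand) held none of the 5 motifs searched on both strands, which also included AGGTGT and TATAAA. Among 32817 mouse promoter stretches of this length, 6.55% held GATAAG, 9.99% held AGATAA, 1.47% held the CArG box, 11.8% held AGGTGT and 12.4% held TATAAA. These matches describe letters only.

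The libraries held 23204551 to 32166517 counts. Values are CPM, which scales libraries to a common total, here after TMM normalization, on which the floor of 3 counts lay between 0.0895 and 0.157 CPM. The TMM factors were 0.781 to 0.917 for sham hearts and 1.01 to 1.17 for AMI hearts, and mitochondrial transcripts took 17.9% to 27.4% of sham counts and 12.1% to 19.2% of AMI counts. Cardiomyocyte markers were abundant in every library, with summed levels of 10 markers from 41020 to 56540 TPM, which adjusts for transcript length and library total. Sham replicate 4 stood apart in the atrial transcripts, and sham replicate 2 in the 5 blood transcripts (15170 TPM against 1617 to 3635 in the other sham hearts). Results that rest on sham replicate 4 are therefore given with and without it.

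*Myl4* transcripts were at 18.0, 49.3, 14.4 and 123 CPM in sham replicates 1 to 4. Day 1 AMI hearts had 68.6, 69.8, 57.4 and 39.3 CPM, and day 7 AMI hearts had 65.2, 44.2, 33.8 and 26.2 CPM. Sham replicate 4 lay above and sham replicates 1 and 3 below all 8 AMI hearts. By group mean the order was day 1 AMI (58.8 ± 14.1 CPM, SD, n = 4), sham (51.1 ± 50.3) and day 7 AMI (42.4 ± 17.0), and the ranges of all 3 groups overlapped. Without sham replicate 4 the sham mean was 27.2 ± 19.2 CPM (SD, n = 3), the lowest of the 3 groups; such means were added after the data were examined.

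*Myl7* showed the same layout in sham, with 12.2, 32.0, 10.7 and 86.8 CPM in replicates 1 to 4. Day 1 AMI hearts had 57.6, 41.2, 46.0 and 31.9 CPM, and day 7 AMI hearts had 34.0, 21.3, 17.4 and 10.5 CPM. Only day 7 AMI replicate 1 was as high as the lowest day 1 AMI heart. Its mean was again highest at day 1 AMI (44.2 ± 10.7 CPM), then in sham (35.4 ± 35.6) and at day 7 AMI (20.8 ± 9.88), with neighbours in this order closer than the sham SD. Without sham replicate 4 the sham mean of *Myl7* fell to 18.3 ± 11.9 CPM, below that of day 7 AMI.

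*Sln* was the least abundant of the muscle members. The sham hearts had 6.94, 12.5, 4.12 and 43.8 CPM, the day 1 AMI hearts 17.4, 12.9, 14.2 and 11.2 CPM and the day 7 AMI hearts 11.6, 13.4, 7.86 and 4.29 CPM. Sham replicate 4 again exceeded every other heart. The sham mean was 16.8 ± 18.3 CPM, the day 1 AMI mean 13.9 ± 2.63 and the day 7 AMI mean 9.28 ± 4.05, and the groups overlapped. The sham mean went from the highest to the lowest when replicate 4 was left out (7.85 ± 4.26 CPM).

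*Bmp10* varied most. Sham replicates 1 to 4 held 2.66, 9.28, 0.0970 and 66.3 CPM, from 51, 226, 2 and 1387 counts. Day 1 AMI hearts held 0.115, 4.54, 1.93 and 0.189 CPM, from 3, 152, 59 and 6 counts. Day 7 AMI hearts held 0.894, 0.502, 0.0369 and 0.510 CPM, from 29, 13, 1 and 15 counts. The transcript was thus at or under the floor of 3 counts in sham replicate 3, day 1 AMI replicate 1 and day 7 AMI replicate 3, while all 12 hearts held *Myl4*, *Myl7* and *Sln* well above it. Mean levels were 19.6 ± 31.4 CPM for sham, 1.69 ± 2.07 for day 1 AMI and 0.486 ± 0.351 for day 7 AMI, and the ranges of the groups overlapped. The other 3 sham hearts averaged 4.01 ± 4.74 CPM, still the highest mean.

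**Figure D1:**
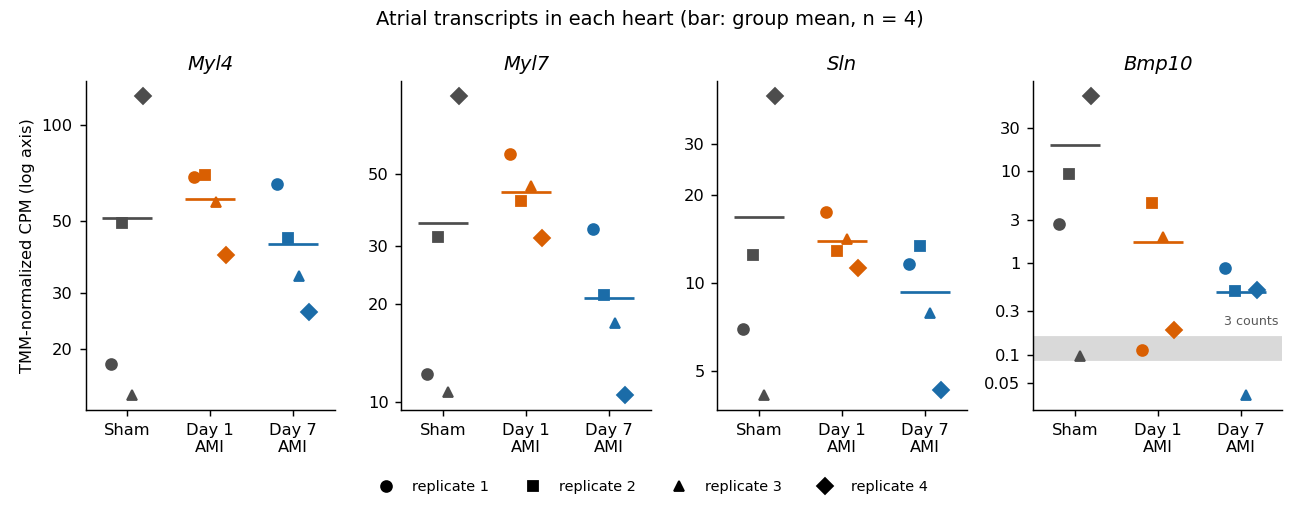
TMM-normalized CPM on a log axis for each heart by group, with bars at the group means (n = 4) and symbols for the replicate number; the grey band marks 3 counts. Sham replicate 4 is the highest heart for all 4 genes, and *Bmp10* spans from 0.0369 to 66.3 CPM.

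On the length-adjusted TPM scale, where levels of different genes can be compared, *Myl7* and *Myl4* were the most abundant of the 4. In day 1 AMI *Myl7* averaged 188 ± 42.6 TPM, *Myl4* 125 ± 25.5, *Sln* 17.9 ± 3.03 and *Bmp10* 0.538 ± 0.661 (SD, n = 4). Levels in day 7 AMI were 103 ± 49.9 TPM for *Myl7*, 104 ± 43.8 for *Myl4*, 14.0 ± 6.02 for *Sln* and 0.185 ± 0.135 for *Bmp10*. The day 7 levels of the 2 light chains were thus within their spread of each other. In sham they were 121 ± 118, 85.9 ± 83.3, 17.2 ± 18.4 and 4.95 ± 7.84 TPM in the same order.

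The question put to these transcripts was how far hearts of 1 group differ. In sham, which chose the genes, the highest heart held 8.52 times the *Myl4*, 8.10 times the *Myl7* and 10.6 times the *Sln* of the lowest. For *Bmp10* the ratio was 683.7, with a 95% interval from counting error of 188.9 to 5651 because the lowest heart had 2 counts. Day 1 AMI hearts, which were not used for the choice, differed by 1.78, 1.81 and 1.55 times for *Myl4*, *Myl7* and *Sln*, and day 7 AMI hearts by 2.49, 3.24 and 3.13 times. The *Bmp10* ratio was 39.54 (13.27 to 193.8) in day 1 AMI and 24.22 (4.017 to 989.4) in day 7 AMI.

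To set this spread against other genes, the SD of log2 CPM over the 4 hearts of a group was ranked among the 15306 genes tested. In day 1 AMI the SDs of *Myl4*, *Myl7* and *Sln* were 0.38, 0.35 and 0.27, at percentiles 83.66, 81.22 and 71.0, where the median gene had 0.17. In day 7 AMI they were 0.56, 0.70 and 0.73, at percentiles 94.07, 96.94 and 97.32, again against a median of 0.17. *Bmp10* had an SD of 2.24 at day 1 and 1.36 at day 7 AMI, the 7th and 64th widest of all genes tested. In sham the SDs were 1.42, 1.40, 1.46 and 3.60 for *Myl4*, *Myl7*, *Sln* and *Bmp10*, at percentiles 99.27, 99.24, 99.41 and 99.99, where the median gene had 0.20. Without sham replicate 4 they were 0.94, 0.86, 0.79 and 2.96. For the light chains and sarcolipin the spread was narrower in both AMI groups than in sham, and that difference was not tested.

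**Figure D2:**
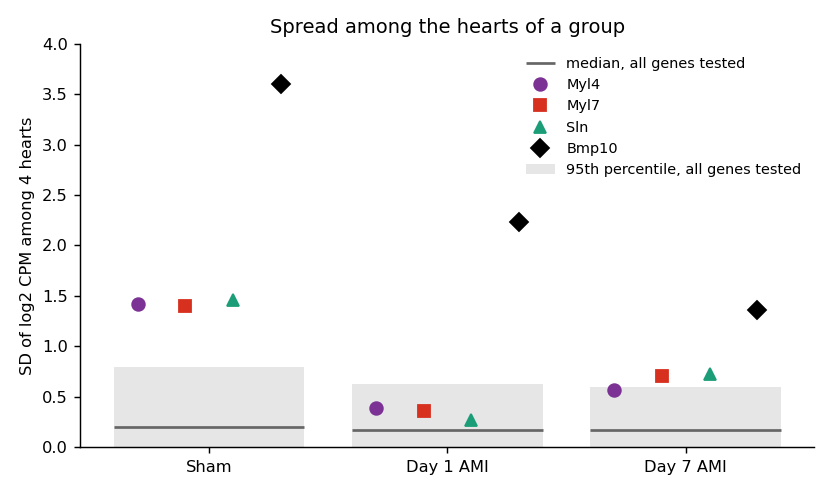
SD of log2 CPM among the 4 hearts of each group for *Myl4*, *Myl7*, *Sln* and *Bmp10*; the grey line is the median and the top of the grey bar the 95th percentile over 15306 genes. In day 1 AMI the light chains and *Sln* (0.27 to 0.38) sit under the 95th percentile of 0.63, and *Bmp10* lies above it in every group.

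The hearts were then placed in order by each gene, which asks whether a heart rich in 1 atrial transcript was rich in the others. The 4 sham hearts fell in the same order for all 4 genes, replicate 4, then 2, 1 and 3, although the choice of genes rests on these values. In the AMI groups the order of the light chains and sarcolipin was mostly shared. Of the 12 pairs of hearts within the AMI groups, *Myl7* and *Sln* placed 11 in the same order, *Myl4* and *Myl7* placed 10, and *Myl4* and *Sln* placed 9. A gene tested placed a median of 6 of these 12 pairs in the order of *Myl7*, and 3.5% of genes placed 10 or more. For the orders of *Myl4*, *Sln* and *Bmp10* the median was also 6, and 8.02%, 3.31% and 8.4% of genes placed 10 or more. *Bmp10* shared the order of *Myl4* in 8 pairs, of *Myl7* in 6 and of *Sln* in 5. Pairs within a group share hearts, so these counts are a description.

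*Bmp10* also kept no fixed ratio to the atrial light chain. For every 100 *Myl7* reads there were 21.9, 29.0, 0.905 and 76.4 *Bmp10* reads in sham replicates 1 to 4. The ratio was 0.199, 11.0, 4.20 and 0.594 in day 1 AMI and 2.63, 2.36, 0.212 and 4.87 in day 7 AMI. All 8 AMI hearts were below sham replicates 1, 2 and 4, whereas sham replicate 3 lay among them.

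**Figure D3:**
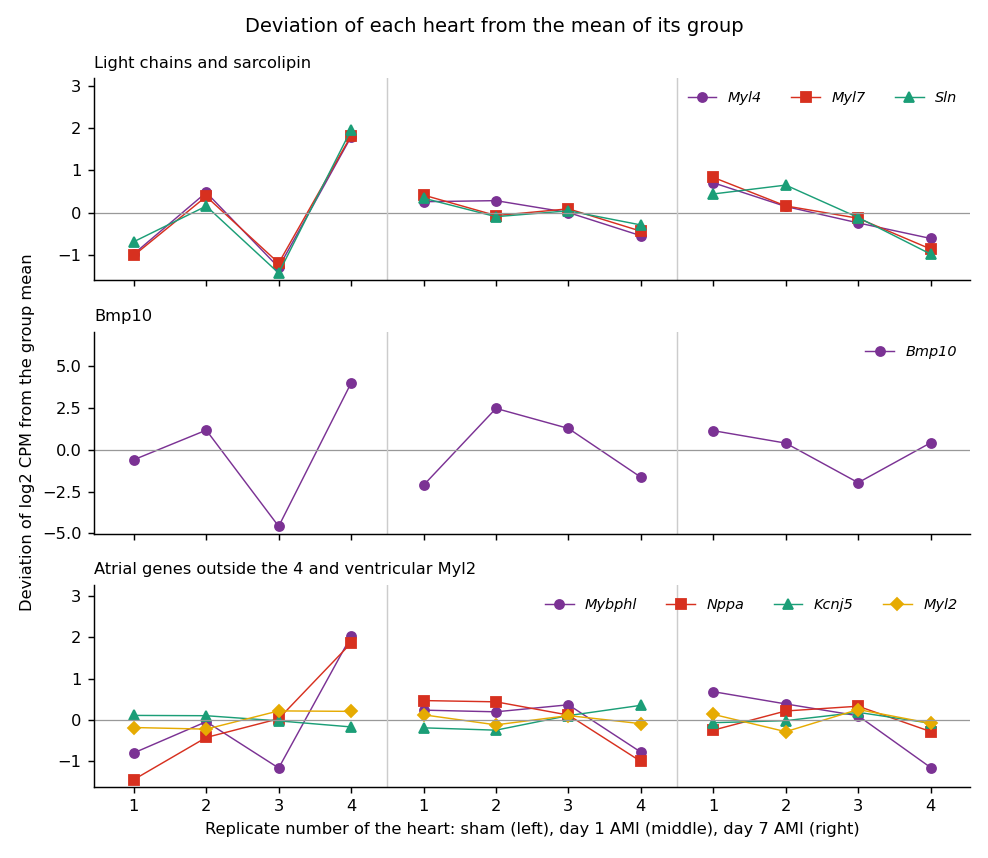
Deviation of log2 CPM of each heart from the mean of its group for the light chains and *Sln* (top), *Bmp10* (middle) and *Mybphl*, *Nppa*, *Kcnj5* and *Myl2* (bottom). *Myl4*, *Myl7* and *Sln* stay close to each other. Within the AMI groups *Mybphl* placed 11 of 12 pairs of hearts in the order of *Myl7*, where 3.5% of genes placed 10 or more. In day 1 AMI *Bmp10* spans deviations of −2.12 to 2.48, with replicates 1 and 4 at 3 and 6 counts. It shared the order of 2 of 6 pairs with *Myl7* and of 4 with *Myl4*, as many as *Myl4* and *Myl7* shared.

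Atrial and ventricular light chains take the same places on myosin, and their balance within a heart does not depend on how libraries are scaled. It is a ratio over the whole heart. A fall of the ventricular chain raises it as much as a rise of the atrial one. *Myl7* made up 0.304%, 0.819%, 0.204% and 1.63% of the summed *Myl7* and *Myl2* TPM in sham replicates 1 to 4. In day 1 AMI the share was 1.81%, 1.53%, 1.46% and 1.15%, and in day 7 AMI 1.76%, 1.34%, 0.833% and 0.637%. The mean share was 0.739% ± 0.652 for sham (SD, n = 4), 1.49% ± 0.269 for day 1 AMI and 1.14% ± 0.507 for day 7 AMI. Between sham and day 7 AMI the mean of *Myl7* itself went from 35.4 to 20.8 CPM. That of *Myl2* went from 5580 to 2155 CPM. For the essential light chain, *Myl4* made up 0.943% ± 0.810 of the summed *Myl4* and *Myl3* TPM of sham hearts, 1.66% ± 0.413 at day 1 AMI and 1.67% ± 0.681 at day 7 AMI. The 3 groups overlapped in both shares. Day 7 and day 1 AMI were not separated for either chain (exact two-sided permutation p = 0.257 for the regulatory and 0.971 for the essential chain, with 0.0286 as the smallest p that 4 against 4 can give). Without sham replicate 4 the sham means were 0.442% and 0.587%.

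**Figure D4:**
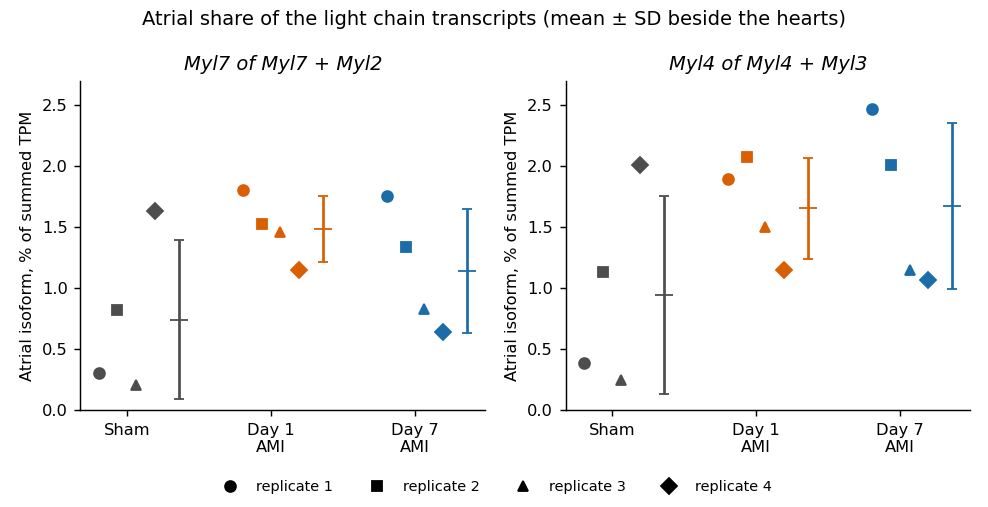
Atrial isoform as a percent of summed atrial and ventricular TPM for the regulatory (*Myl7*, left) and essential (*Myl4*, right) light chain, one symbol per heart and mean ± SD beside each group (n = 4). All hearts lie between 0.204% and 2.47%, and the 3 groups overlap in both panels.

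The values of AMI hearts did not enter the choice of genes, and day 7 was compared with day 1 AMI with edgeR over all 15306 genes, in a fit whose estimate of spread includes the sham hearts that chose them. *Myl7* was at a log2 FC of −1.08 ± 0.53 (SE) with an adjusted p of 0.108, and the exact two-sided permutation p on log2 CPM was 0.0571. *Myl4* was at −0.47 ± 0.51 (adjusted p = 0.471, exact permutation p = 0.2), *Sln* at −0.58 ± 0.55 (0.401 and 0.143) and *Bmp10* at −1.79 ± 1.47 (0.337 and 0.543). All 4 point estimates were below 0 and the groups overlapped for each gene. None was called by edgeR, DESeq2 or limma on log2(TPM + 1), and 0 of the 4 had an unadjusted edgeR p below 0.05. The *Bmp10* estimate was −0.606 without day 1 AMI replicate 2, its highest day 1 heart, −0.290 on log2(TPM + 1) and −0.632 on log2(TPM + 0.1), and lay between −2.29 and −1.42 with any other heart left out. Of all genes, 11.2% were called (FC of 2 or greater and adjusted p below 0.05), 2.69% as lower at day 7, and 44.5% had groups that did not overlap. The *Myl7* result depended on the sham hearts that enter the shared estimate of spread. With only the 2 AMI groups in the fit its log2 FC was −1.098 ± 0.290 with an adjusted p of 0.00935, and without sham replicate 4 it was −1.087 ± 0.360 with an adjusted p of 0.0246, both past the threshold.

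Against sham, the fitted log2 FCs describe the hearts that chose the genes and carry no p. At day 1 AMI they were 0.20 ± 0.51 (SE) for *Myl4*, 0.32 ± 0.52 for *Myl7*, −0.28 ± 0.54 for *Sln* and −3.49 ± 1.19 for *Bmp10*. At day 7 AMI they were −0.27 ± 0.51, −0.77 ± 0.53, −0.86 ± 0.55 and −5.28 ± 1.39. The groups overlapped for every member, as they did for all but 36.7% of the genes tested at day 1 AMI and 53% at day 7 AMI. These values turned on 1 heart. Without sham replicate 4 the values were 1.10, 1.26, 0.81 and −1.24 at day 1 AMI, and 0.63, 0.17, 0.23 and −3.03 at day 7 AMI. The SEs were then 0.39, 0.40, 0.37 and 1.03 at day 1 and 0.39, 0.40, 0.37 and 1.15 at day 7, so that the day 7 values of *Myl7* and *Sln* lay within 1 SE of 0, and the AMI hearts still overlapped the other 3 sham hearts for each gene. Both comparisons share the sham hearts. The day 7 signs of *Myl4*, *Myl7* and *Sln* also turned with the scaling: on log2(TPM + 1) the values were 0.70 for *Myl4*, 0.16 for *Myl7* and 0.12 for *Sln*, where the median of all genes lay at 0.44.

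Other genes known for atrial expression were read as a list of 17, all of which passed the filter. Against day 1 AMI, day 7 hearts had 1 of the 17 called higher and 3 lower, with a median log2 FC of −0.09 beside 0.02 over all genes, where 8.55% were called higher and 2.69% lower. *Kcnj5*, a subunit of the acetylcholine-gated potassium channel of atrial cells, fell by 1.11 on the log2 scale (SE 0.12, adjusted p = 1.09e-05, edgeR). *Sbk2*, an atrial kinase, was at −1.02 ± 0.23 (adjusted p = 0.00251), and *Hamp*, which encodes the iron hormone hepcidin, at −1.84 ± 0.65 (adjusted p = 0.0308). *Dkk3*, a secreted glycoprotein also made by other heart cells, rose by 1.60 (SE 0.36, adjusted p = 0.00245). The atrial myosin-binding protein gene *Mybphl* was at −0.29 ± 0.58 and not called. The *Hamp* call was lost without day 1 AMI replicate 1 or 2 or day 7 AMI replicate 2 or 4 (values down to −1.448). That of *Kcnj5* was lost without day 1 AMI replicate 4 (−0.98), and that of *Sbk2* without day 1 AMI replicate 3 or 4 or day 7 AMI replicate 1 or 4 (−0.874 to −0.999), in each case for want of a 2-fold change. The 3 lower calls also depended on the scale. On log2(TPM + 1) none of the 3 was called, with *Kcnj5* at −0.852, *Sbk2* at −0.802 and *Hamp* at −1.52 (limma adjusted p = 0.0553), nor on log2(TPM + 0.1). On library totals without TMM *Kcnj5* was at −0.984 and *Sbk2* at −0.895, and with a replicate block *Sbk2* was at −0.979 and *Hamp* at −1.78 (edgeR adjusted p = 0.0628), all short of a call.

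Against sham, 2 of the 17 were called higher and 1 lower at day 1 AMI (all genes: 7.79% and 2.98%, 10.8% in all), and 3 higher and 5 lower at day 7 AMI (15.3% and 5.88%, 21.2% in all). *Nppa* encodes atrial natriuretic peptide, which the stressed ventricle also makes. Sham hearts had 55.6, 113, 155 and 555 CPM of it, day 1 AMI hearts 1122, 1098, 879 and 402, and day 7 AMI hearts 1205, 1664, 1803 and 1176. It rose by 1.99 ± 0.54 at day 1 (adjusted p = 0.00923) and 2.73 ± 0.56 at day 7 (adjusted p = 0.000710), and by 3.017 and 3.755 without sham replicate 4, which was also its highest sham heart. *Clu*, a secreted chaperone, rose by 1.00 ± 0.14 and 1.81 ± 0.15, the day 1 value under 2-fold without sham replicate 2 or 3 or day 1 AMI replicate 3 or 4 (0.892 to 0.985). The gene called lower at day 1 was *Sbk2* (−1.05 ± 0.22), which fell short without sham replicate 4 (−0.776) or day 1 AMI replicate 2 (−0.944). At day 7 the potassium channel genes *Kcnj3* (−1.42 ± 0.19) and *Kcnj5* (−1.19 ± 0.13), the transcription factor gene *Tbx5* (−1.25 ± 0.12), *Stard10* (−1.42 ± 0.19) and *Sbk2* (−2.07 ± 0.23) fell. Under library totals the median of all genes moved to 0.425 at day 7, and with log2(TPM + 1) to 0.44. On those scalings the *Kcnj5* value was −0.788 and −0.571 and that of *Tbx5* −0.841 and −0.645, both under the 2-fold minimum. Among 9 alternatives *Kcnj3* reached −0.786 and *Stard10* −0.771, each short of a call in 2, while *Sbk2* was called in all.

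**Figure D5:**
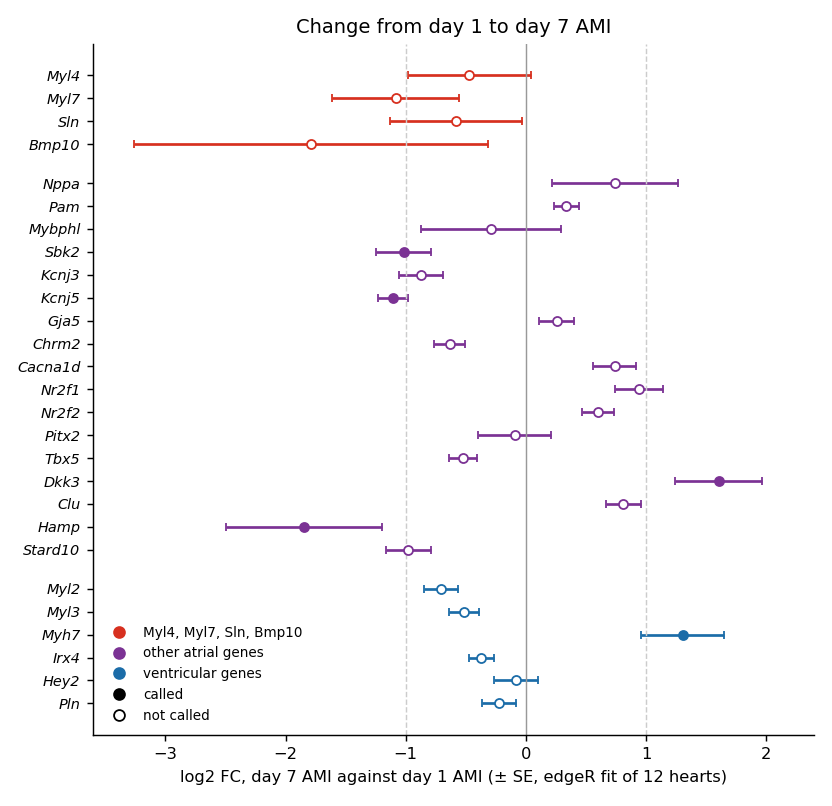
Log2 FC of day 7 against day 1 AMI with its SE from the edgeR fit of 12 hearts, for *Myl4*, *Myl7*, *Sln* and *Bmp10* (red), 17 other atrial genes (purple) and 6 ventricular genes (blue); filled symbols were called, and dashed lines mark a 2-fold change. The red estimates all lie below 0 with open symbols, and *Kcnj5*, *Sbk2* and *Hamp* are filled on the left.

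Ventricular counterparts were read beside the atrial genes. *Myl2* ranged from 4712 to 6408 CPM among sham hearts, 3221 to 3814 at day 1 AMI and 1744 to 2534 at day 7 AMI, with no overlap between groups. Relative to sham it was at −1.37 ± 0.14 at day 7 AMI, *Myl3* at −1.05 ± 0.13 and phospholamban (*Pln*) at −1.09 ± 0.14, all called lower, while the slow myosin heavy chain gene *Myh7* rose by 2.78 ± 0.37. These were 4 of the 6 ventricular genes, 1 higher and 3 lower, where 15.3% of all genes were called higher and 5.88% lower. The *Myl3* call was lost without sham replicate 3 or 4 or day 7 AMI replicate 2 (−0.968 to −0.998), and that of *Pln* without sham replicate 1 (−0.999). From day 1 to day 7 AMI, where 8.55% of all genes were called higher and 2.69% lower, *Myh7* was the 1 of the 6 called (1.31 ± 0.35, adjusted p = 0.00690, and 0.928 without day 7 AMI replicate 3), and *Myl2* was at −0.71 ± 0.14 (adjusted p = 0.000904), under the 2-fold minimum. On log2(TPM + 1) 1 of the 6 was called at day 7 against sham.

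The partners of the members were read in the same way. Of 7 genes of the myosin motor and of light chain phosphorylation, only *Myh7* was called at day 1 AMI against sham, beside 10.8% of all genes. At day 7 AMI 4 of the 7 were called against sham, beside 21.2% of all genes, and 1 by limma on log2(TPM + 1). There *Myh6*, the main heavy chain of both chambers in the mouse, fell by 1.20 (SE 0.14) together with *Myl2* and *Myl3*. The *Myh6* call was lost in 3 of 9 alternatives, with values up to −0.416. A list of 5 genes held the calcium pump of the sarcoplasmic reticulum and its small regulators. Of these, 3 passed the filter: *Atp2a1*, *Atp2a2* and *Pln*, which was also counted among the ventricular genes. All 3 were called lower at day 7 AMI against sham, beside 5.88% of all genes. On log2(TPM + 1) 0 of the 3 were called by limma, and *Atp2a2* was then at −0.768, or at −0.926 with edgeR on library totals. *Atp2a2*, the cardiac pump, was at −1.32 ± 0.14 and the much scarcer *Atp2a1* at −1.15 ± 0.37, a call that was lost without sham replicate 4 (−0.927, adjusted p = 0.0587) or day 7 AMI replicate 3 (−0.981) or 4 (−0.995). Between day 7 and day 1 AMI 0 of the 3 were called by edgeR or DESeq2, where edgeR called 11.2% of all genes, and 1 had an unadjusted p below 0.05. Of the 15 genes of BMP10 signalling, 14 passed the filter. At day 1 AMI against sham 0 were called by edgeR or DESeq2, where edgeR called 10.8% of all genes, and 5 had an unadjusted p below 0.05. At day 7 against day 1 AMI 0 were called by either, beside 11.2% of all genes by edgeR, 1 by limma on log2(TPM + 1), and 8 had an unadjusted p below 0.05. At day 7 against sham the target gene *Id2* was the 1 called by edgeR (1.16 ± 0.16), where 21.2% of all genes were called. DESeq2 also called 1 of the 14 there, and 6 had an unadjusted edgeR p below 0.05. By limma on log2(TPM + 1) 3 were called, where 2668 of 15306 genes were called higher and 111 lower. The receptor gene *Acvrl1*, which encodes ALK1, was at 0.13 ± 0.10 at day 1 and 0.56 ± 0.10 at day 7, and *Bmpr2* at −0.06 ± 0.13 and −0.11 ± 0.13. The inhibitor gene *Smad6* was at −0.54 ± 0.16 and −0.12 ± 0.16.

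The search for genes most like the members includes the sham values that chose them and describes those hearts above all. Genes whose deviations from the group means over the 12 hearts lay nearest to the average of the 4 members were sought among 13430 genes with a mean of at least 1 CPM. The average gave each member the same weight, although *Bmp10* had the widest spread of the 4. In day 1 AMI replicate 1 *Bmp10* deviated by −2.12, at 3 counts. There *Myl4*, *Myl7* and *Sln* deviated by 0.26, 0.42 and 0.34. The nearest were *Tmem163* and *Mybphl*, with root-mean-square differences of 0.47 and 0.48 on the log2 scale, where the median gene had 1.08. *Dkk3* (0.58), *Hamp* (0.59), *Fhdc1* (0.63), *Cilp2* (0.63), *Ngef* (0.66), *Fgf12* (0.69), *Cenpm* (0.72) and *Adora2b* (0.74) followed. Of these 10, 5 were also among the first 10 by Pearson correlation and 6 on log2(TPM + 1), but 1 of the 10 (*Fhdc1*) when the 8 AMI hearts alone were used, a choice made after the data were examined. Over those 8 hearts *Tmem163* ranked 196th, *Mybphl* 370th and *Hamp* 10165th. These ranks also reflect *Bmp10* values near the floor, so they do not measure likeness to the light chains and sarcolipin alone. For *Mybphl* the sham hearts had 2.71, 4.64, 2.09 and 19.8 CPM, the day 1 AMI hearts 6.54, 6.36, 7.16 and 3.18 and the day 7 AMI hearts 6.90, 5.60, 4.57 and 1.87. Within the AMI groups it placed 11 of 12 pairs of hearts in the order of *Myl7*. The atrial list was not uniform in this: *Nppa* ranked 51st, *Gja5* 183rd and *Kcnj5* 11760th, and *Myl2* ranked 7587th.

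Markers of other tissues near the atria were also summed in each heart. The 5 adipose markers reached 2.05, 13.6, 2.77 and 9.27 TPM in sham replicates 1 to 4, so that the sham hearts rich in atrial transcripts were also the higher ones here. They reached 8.57, 5.82, 5.71 and 4.48 TPM at day 1 AMI and 8.14, 20.2, 5.99 and 11.4 TPM at day 7 AMI. The summed TPM of the 4 members followed the same order of hearts at day 1 AMI, with 408.9, 339.7, 328.3 and 248.4. At day 7 AMI the members summed to 353.7, 229.5, 171.9 and 127.2 TPM, an order that the adipose markers did not share. *Ucp1*, the marker of brown fat, had 24 and 17 counts in sham replicates 2 and 4 and 0 in replicates 1 and 3. In day 1 AMI it had 8 counts in replicate 1 and 0 in the others. The 5 markers of epicardium and mesothelium summed to 5.70 to 14.0 TPM in sham, with replicate 2 the highest. Their sums were 18.2, 12.2, 8.03 and 6.91 TPM at day 1 AMI, again in the order of the members. At day 7 AMI they were 22.0, 26.4, 17.8 and 26.5 TPM, not in that order. Sums of 5 smooth muscle markers were 83.2 to 199 TPM in sham with the lowest value in replicate 4, 161 to 294 at day 1 AMI and 688 to 1412 at day 7 AMI. The markers did not move alike. At day 7 AMI against sham 3 of the 5 were called higher, beside 15.3% of all genes. *Eln* went from 46.7 to 878 CPM there, whereas the smooth muscle myosin gene *Myh11* was at 41.2 and 45.2 CPM and was not called. Of 6 markers of the sinoatrial node, *Isl1* had at most 2 counts in any heart, and the sum was lowest in sham replicate 4 (8.55 TPM, other sham hearts up to 13.3). The amount of atrium in each sample and the part of these tissues in the spread were not tested.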

How the data were processed

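RNA of whole hearts was sequenced after sham surgery or AMI, with 1 library per heart and 4 per group, assigned by label. The authors trimmed 150-base paired-end reads with Cutadapt and aligned them with STAR 2.4.0j to mouse GRCm38. The authors deposited raw counts per gene, whole numbers without normalization, and TPM from RSEM. The tool behind the raw counts and the strand counted are not given in the sources used here. A gene whose reads overlap an opposite-strand gene is therefore uncertain.

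Counts were filtered with filterByExpr, scaled by TMM and fitted with edgeR 4.0.16 (quasi-likelihood, 1 fit of 12 libraries, R 4.3.3). A call needed an FC of at least 2 and an adjusted p (Benjamini-Hochberg, all genes tested) below 0.05. Log2 CPM used a prior count of 2. Single values were compared by exact two-sided permutation (scipy 1.17.1). Intervals and floors cover counting error only. The labels do not tie hearts to separate litters or days, so p-values measure the spread between these hearts. No library repeated another, since libraries of a group differed by a chi-square of 9.19 or more per degree of freedom. The code was tested on simulated data. The alternatives were DESeq2 1.42.0, limma 3.58.1 on log2(TPM + 1) and log2(TPM + 0.1), other scalings, filters and samples in the fit, a replicate block, and each heart left out. The genes and lists were chosen with earlier results of these data known. Named genes are the 4 members, genes of the lists, and the 10 genes nearest in deviation. Protein sequences were not used here.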

Additional observations from a re-analysis of the deposited data

Results flagged for a closer look

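For 27 genes and 2 light chain shares, each group of 4 hearts was searched for 1 heart far from the others. Of 87 groups in all, 2 stood out. Chance alone flags about 1 independent group in 20. The groups here share hearts and include the sham values that chose the genes, so their count cannot be set against that rate. *Bmp10* in sham, whose values chose the gene and are given as a description, stood out for replicate 4 at 66.32 CPM, where the other sham hearts were at 0.0970 to 9.28 CPM and the gap was 0.861 of the range. *Mybphl* in sham stood out for the same heart at 19.8 CPM, where the others were at 2.09 to 4.64 CPM and the gap was 0.856 of the range. The amount of atrium in that sample was not tested.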

How the results depend on the processing

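The estimates of day 7 against day 1 AMI stayed below 0 for *Myl4*, *Myl7*, *Sln* and *Bmp10* in all 9 alternatives and with each of the 12 hearts left out. *Myl7* was the one of them called in some, with only the groups compared in the fit (−1.098) and without sham replicate 4, and its values with a heart left out ran from −1.43 to −0.863. Against sham, *Bmp10* at day 7 AMI was at −1.44 on log2(TPM + 1), a scale that compresses genes near 0. The genes called numbered 1648 (1192 higher, 456 lower) at day 1 AMI against sham, 3246 (2346 and 900) at day 7 against sham and 1719 (1308 and 411) at day 7 against day 1 AMI. On log2(TPM + 1) they were 1020 (957 and 63), 2779 (2668 and 111) and 1009 (879 and 130). On library totals without TMM, an alternative chosen after the data were examined, they split into 1764 and 217, 3633 and 318, and 1626 and 293. Without the FC minimum they were 6403, 9081 and 7197, and the atrial genes outside the 4 called were then 7, 15 and 13 in place of 3, 8 and 4. At day 7 against day 1 AMI the atrial calls were 2 on log2(TPM + 1) and between 2 and 5 with a heart left out, with 2 without day 1 AMI replicate 4 or without day 7 AMI replicate 4. The ventricular calls at day 7 against sham, 4 in the fit reported, were 1 on log2(TPM + 1), on log2(TPM + 0.1) and on library totals. Those at day 1 against sham and day 7 against day 1 AMI, 1 each, were 4 without the FC minimum, and the latter was 0 to 1 with a heart left out. The cause was not tested where a scaling moved a call.

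The replicate numbers of the labels did not pair the hearts, since 4 of 12 same-numbered pairs correlated over 0.1 (range −0.244 to 0.229) and 2 of 12 hearts correlated best with their own number. With a replicate block the genes called were 1621, 3240 and 1696, the atrial genes outside the 4 called at day 7 against day 1 AMI were 2, and *Myl7* there was at −1.11 (edgeR adjusted p = 0.127).

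Depth limits *Bmp10* alone among the 4: 3 hearts held 3 counts or fewer, so its ratios between AMI hearts carry wide counting intervals.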

Other observations

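Lung surfactant transcripts were outside the comparisons. *Sftpc* had 34 and 132 counts in day 7 AMI replicates 1 and 3 and 0 in the other 10 hearts, and *Sftpb* had 1 and 19 in the same hearts. Summed over 4 lung markers, of which *Scgb1a1* was at 0 in every heart, the level was 3.46 and 16.2 TPM in these hearts and at most 0.02 TPM in the others. Of the genes for fast skeletal myosins, *Myh1* reached 38 counts in day 7 AMI replicate 2 and 13 or fewer in the other hearts. The 5 thymus markers summed to at most 1.20 TPM in any heart.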
